A study of Mus musculus with 2 samples.

Results

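Cytochrome P450 genes are described here in mouse adrenal gland, leaving out the enzymes of corticosteroid and lanosterol metabolism. Members were taken by name: all protein-coding genes of the annotation whose symbol is Cyp followed by a digit, except Cyp11a1, Cyp11b1, Cyp11b2, Cyp21a1 and Cyp51. This gives 95 of 100 such genes, out of 22028 annotated protein-coding genes. By this rule Cyp17a1 and Cyp19a1, enzymes of androgen and oestrogen synthesis, are members, although the name of the set would leave them out. The data come from adrenal gland tissue of wild-type C57BL/6J mice with no treatment, in a single group of 2 long-read RNA libraries, replicates 1 and 2. Their labels share a donor entry, call the tissue male in a free-text field, and give neither a collected sex nor an age. The labels number them as biological replicates with a biosample each, but do not say that these came from separate mice, so the spread between them may in part be technical. Every test between them compares 2 libraries, not conditions.

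P450 enzymes are haem proteins that insert an oxygen atom into a lipid or a foreign compound. Most sit in the membrane of the endoplasmic reticulum and take electrons from the flavoprotein encoded by Por, while the mitochondrial ones take them from ferredoxin, Fdx1, and its reductase, Fdxr. The adrenal cortex is known for the few P450 enzymes that turn cholesterol into corticosterone and aldosterone. The families described here are better known from liver, kidney and lung, where they oxidise drugs, fatty acids, bile acid precursors, vitamin D and retinoic acid.

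The iron of the haem is held by a cysteine near the end of the protein, inside a stretch that nearly all P450 genes share. The cysteine haem-iron ligand signature of PROSITE was found in the translated longest coding sequence of 88 of the 95 members. The other 7 members were Cyp20a1, Cyp7b1, Cyp39a1, Cyp8b1, Cyp2s1, Cyp2b10 and Cyp2t4, and in these the pattern did not match as written. The 30 bases of the 10 codons of the signature are shown for 7 members with many reads because they show both what the set shares and how alike the Cyp4f genes are. They are spliced coding sequence of GENCODE M21 on mm10, with the cysteine codon in capitals.
Cyp4f14: ttctcggcgggacccaggaacTGCatagga
Cyp4f13: ttctcagcggggaccaggaacTGCatagga
Cyp4f16: ttttctgccgggcccaggaacTGCatagga
Cyp4f18: ttctcggctgggcccaggaacTGCatagga
Cyp2e1: ttttctgcaggaaagcgcgtgTGTgttgga
Cyp1b1: ttctcagtgggcaaacggaggTGCatcggt
Cyp27a1: ttcggctatggggttcggtctTGCctgggt

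Between Cyp4f14 and Cyp4f18, 28 of the 30 bases were identical, and between Cyp4f14 and Cyp4f13 27 were. Cyp4f16 was identical to Cyp4f37, a gene with no read, at all 30 bases. Over whole coding sequences these genes are easier to tell apart, with gaps counted as differences. Cyp4f16 and Cyp4f37 share 92.3% of alignment positions, and Cyp4f14 and its closest relative, Cyp4f40, share 80.8%. The coding sequence of Cyp4f37 has 1638 bases and that of Cyp4f16 has 1572, so part of their difference is gaps. Cyp4f16 and Cyp4f37 were the closest pair of the Cyp4f genes, and the assignment of reads between them was not examined. Closer relatives were found for Cyp2a4 (98.4%), Cyp3a25 (97.5%) and Cyp2c68 (97.1%), which had 1 read each.

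Few of the P450 genes outside steroid synthesis were read in the adrenal gland, and those that were stood at low levels. At least 1 read was assigned to 29 of the 95 members (30.5%), to 27 in replicate 1 and to 20 in replicate 2, and 18 members had a read in both. Among all protein-coding genes 63.4% had a read and 52.5% had one in both libraries. The other 66 members had no read. For a count of 0 the limit was set at 3 reads, or 3.53 CPM (reads scaled to a library of 1000000) in replicate 1 and 5.50 CPM in replicate 2, and the exact 95% Poisson interval of 0 reads goes up to 4.35 and 6.77 CPM. These genes were not detectable in these counts. The nearest relative within the family shared a median of 91.9% of coding alignment positions for 64 members with 0 reads. For 11 members with 10 or more reads this median was 79.5%. How reads that match several places were treated is not known, and its part in the counts of 0 was not tested.

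Members held 283 of the 848782 reads of replicate 1, a share of 0.0333% (95% Clopper-Pearson interval 0.0296 to 0.0375%). In replicate 2 they held 323 of 545229 reads, a share of 0.0592% (0.0530 to 0.0661%). Summed over the 95 members the level was 333 CPM (replicate 1) and 592 CPM (replicate 2), against 30027 and 50206 CPM (25486 and 27374 reads) for the 5 P450 genes left out, which is 90.1-fold and 84.7-fold as much. The mean share of the members was 0.0463% ± 0.0183 (SD, n = 2). In a bulk sample fewer cells of a type and less RNA per cell cannot be told apart.

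Reads were concentrated in 12 members that had 10 or more reads over both libraries, and these are named throughout. They held 91.5% of member reads in replicate 1 and 92.3% in replicate 2. The 3 most read, Cyp20a1, Cyp4v3 and Cyp4b1, held 34.6% and 42.4%. A further 17 members had 1 to 9 reads each, 24 and 25 reads in all, and 9 of these had a single read.

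**Figure D1:**
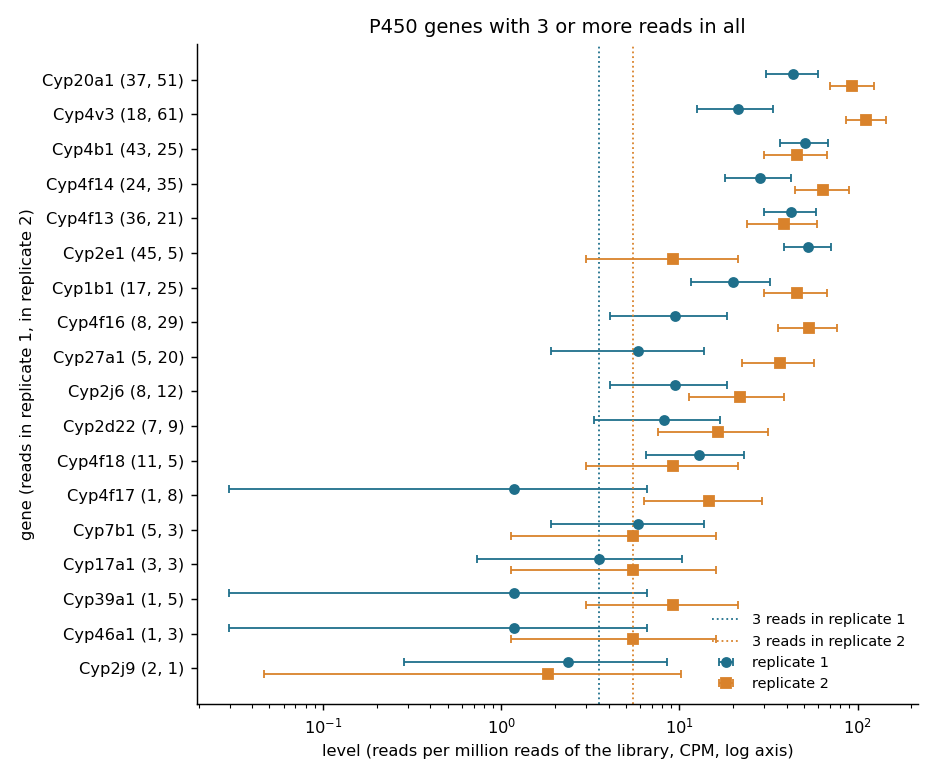
Level in CPM (horizontal, log axis) of the 18 P450 genes with 3 or more reads in all, in replicate 1 (circles) and replicate 2 (squares), with exact 95% Poisson intervals and dotted lines at 3 reads of each library. Cyp2e1 is the gene whose interval in replicate 1 lies wholly above that in replicate 2, while Cyp20a1, Cyp4v3, Cyp4f14, Cyp4f16 and Cyp27a1 have the higher interval in replicate 2.

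A long read covers 1 cDNA copy of a transcript, so a CPM value here was taken as a level per transcript without division by length. Reads can still be amplified copies of the same molecule, which the counts do not show. The order of the genes is also tied to length, since the 2 libraries read short and long transcripts unequally (below). Mean CPM over the libraries ran from 68.6 in Cyp20a1 and 66.5 in Cyp4v3 down to 11.1 in Cyp4f18. Between them the order was Cyp4b1, Cyp4f14, Cyp4f13, Cyp1b1, Cyp4f16, Cyp2e1, Cyp27a1, Cyp2j6 and Cyp2d22. The Poisson intervals of neighbours in this order overlapped in both libraries, except between Cyp4v3 and Cyp4b1, between Cyp4f16 and Cyp2e1, and between Cyp2e1 and Cyp27a1. In these pairs the higher gene of replicate 1 was the lower one of replicate 2, so the order of neighbours is not resolved by these counts. Genes further apart can be: the intervals of Cyp20a1 lay wholly above those of Cyp4f18 in both libraries.

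The group of genes that oxidise fatty acids held the largest part of member reads, and is also the largest group, with 44 of the 95 members. Of the 44 members of the Cyp4, Cyp2c and Cyp2j families and Cyp2u1, which mostly hydroxylate or epoxidise fatty acids, 15 had a read, with 156 reads in replicate 1 and 198 in replicate 2. These reads were 55.1% and 61.3% of member reads. By genes read, 15 of 44 stood beside 29 of 95 over all members. The fatty acid group was uneven inside: 6 of 9 Cyp4f genes were read, but 0 of 8 Cyp4a genes, the omega-hydroxylases that liver induces under fasting, 3 of 8 Cyp2j genes and 2 of 15 Cyp2c genes.

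Cyp4v3, the mouse counterpart of the human gene mutated in a crystalline retinal dystrophy, had 18 reads in replicate 1 (21.2 CPM) and 61 in replicate 2 (112 CPM). Cyp4b1, a hydroxylase best known from lung, had 43 reads (50.7 CPM) and 25 reads (45.9 CPM). Its levels in the libraries differed by less than their counting intervals, unlike those of Cyp4v3.

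The Cyp4f genes oxidise leukotrienes and long fatty acids. Of the 9, 8 lie between 32452723 and 32947402 on chromosome 17 and Cyp4f18 lies on chromosome 8. Together they had 81 reads in replicate 1 and 98 in replicate 2. Cyp4f14, which inactivates leukotriene B4 in liver, had 24 reads (28.3 CPM) in replicate 1 and 35 (64.2 CPM) in replicate 2. Cyp4f13 had 36 reads (42.4 CPM) and 21 (38.5 CPM), close to each other. Cyp4f16 had 8 reads (9.43 CPM) and 29 (53.2 CPM), and its intervals did not overlap. Cyp4f18, the leukotriene B4 hydroxylase of mouse neutrophils, had 11 reads (13.0 CPM) and 5 (9.17 CPM). Of the rest of the cluster, Cyp4f17 had 1 and 8 reads, Cyp4f15 had 1 and 0, and Cyp4f37, Cyp4f39 and Cyp4f40 had none.

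Of the epoxygenases of the Cyp2j family, which act on arachidonic acid, Cyp2j6 had 8 reads (9.43 CPM) in replicate 1 and 12 (22.0 CPM) in replicate 2. Cyp2j9 had 2 reads and 1 read, and Cyp2j12 had 1 read and none. The single reads of Cyp2c23, Cyp2c68 and Cyp2u1 were all in replicate 1, and that of Cyp4x1 was in replicate 2.

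**Figure D2:**
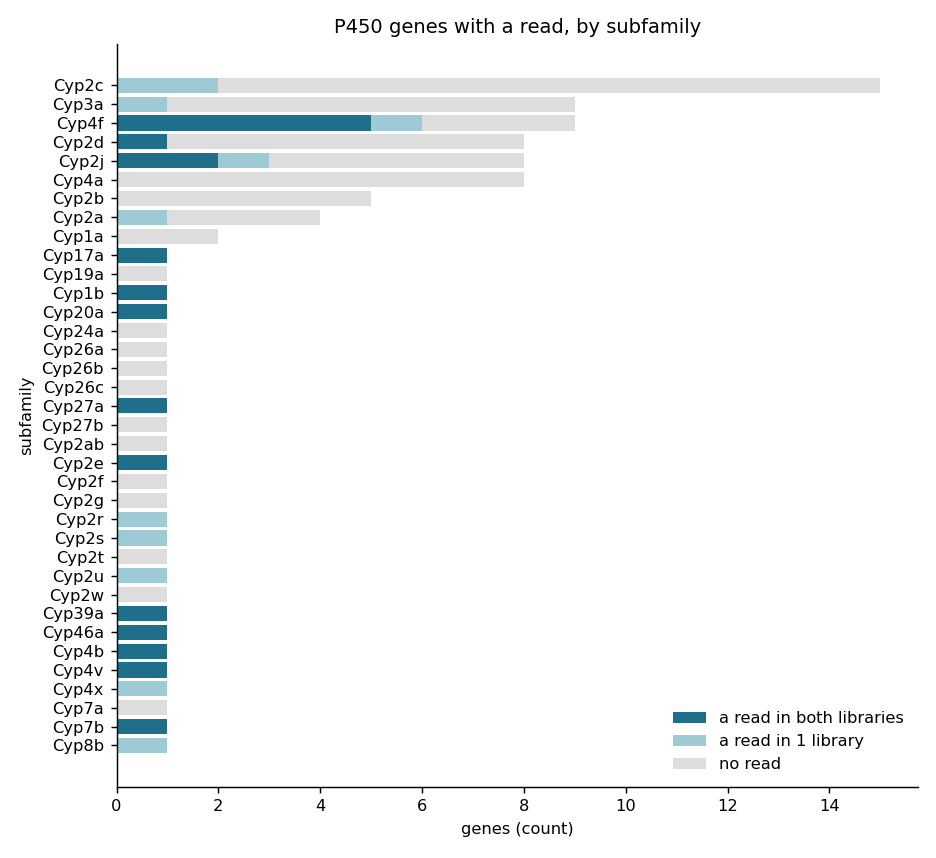
Number of P450 genes per subfamily (horizontal, count), split into genes with a read in both libraries, in 1 library and in none. The large subfamilies Cyp2c (2 of 15 with a read), Cyp3a (1 of 9), Cyp2d (1 of 8) and Cyp4a (0 of 8) are mostly without reads, while 6 of 9 Cyp4f genes have one.

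The families that handle foreign compounds were mostly unread. Of 36 members in the Cyp1, Cyp2 and Cyp3 families outside the fatty acid and vitamin D genes, 6 had a read, with 71 reads in replicate 1 and 40 in replicate 2. No read was assigned to the 5 Cyp2b genes, to Cyp1a1 or to Cyp1a2, and a single one to the 9 Cyp3a genes, in Cyp3a25. Cyp3a11, the main drug-metabolising P450 of mouse liver, had no read.

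Nearly all reads of this group lay in Cyp2e1, Cyp1b1 and Cyp2d22. Cyp2e1, which oxidises ethanol and other small molecules, had 45 reads (53.0 CPM) in replicate 1 and 5 (9.17 CPM) in replicate 2. Cyp1b1, an oestradiol and arene hydroxylase that the aryl hydrocarbon receptor induces, had 17 reads (20.0 CPM) and 25 (45.9 CPM). Cyp2d22, a mouse relative of the human drug-metabolising enzyme CYP2D6, had 7 reads (8.25 CPM) and 9 (16.5 CPM), and the other 7 genes of the Cyp2d cluster had none. With gaps counted as differences, the coding sequences of Cyp2d22 and its nearest relative, Cyp2d11, share 79.5% of alignment positions. Among the other 7, that value ran from 58.7% in Cyp2d40 to 94.7% in Cyp2d10 and Cyp2d11. The coding sequence of Cyp2d40 has 1014 bases against 1500 in its nearest relative, Cyp2d26, so gaps lower its value.

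Of the 6 genes of sterol and bile acid turnover, 5 had a read, with 14 reads in replicate 1 and 31 in replicate 2. Cyp27a1, the mitochondrial sterol 27-hydroxylase, had 5 reads (5.89 CPM) in replicate 1 and 20 (36.7 CPM) in replicate 2. Cyp7b1, an oxysterol hydroxylase, had 5 and 3 reads, Cyp39a1 had 1 and 5, the cholesterol 24-hydroxylase Cyp46a1 had 1 and 3, and Cyp8b1 had 2 and 0. Cyp7a1, the rate-limiting enzyme of bile acid synthesis in liver, had no read.

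The remaining groups were close to empty except for Cyp20a1. Cyp20a1, an orphan P450 with no settled substrate, was the most read member, with 37 reads (43.6 CPM) in replicate 1 and 51 (93.5 CPM) in replicate 2. Cyp17a1, whose product is needed for cortisol and androgens and which the adult mouse adrenal hardly uses, had 3 reads in each library (3.53 and 5.50 CPM). Cyp19a1, aromatase, had none. For vitamin D, the 25-hydroxylase Cyp2r1 had 2 reads and 0, and Cyp27b1 and Cyp24a1, which activate and degrade the hormone, had none. The 3 Cyp26 genes that degrade retinoic acid had none.

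Promoters were compared as a feature that the choice of genes did not use, over 300 bases around the start of 75 members in a RefSeq table (GRCm38.p6). The 11 members with 10 or more reads that were in it held a median of 5 CG dinucleotides. The 10 with 1 to 9 reads held a median of 4.5, the 54 with no read a median of 2, and all 32851 promoters of the table a median of 7. Among the 11, Cyp20a1 with 20, Cyp4v3 with 17 and Cyp1b1 with 16 stood apart from the others, which held 0 to 10. Counts as high were also found in members with few or no reads, with 31 in Cyp46a1, 26 in Cyp26a1, 22 in Cyp2r1 and 17 in Cyp2s1. These are counts of letters in the windows and were not tested.

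The libraries differed in most members that could be tested, as they did in most genes. A two-sided Fisher's exact test, with p adjusted after Benjamini and Hochberg over all 9879 genes with 10 or more reads, called 7 of the 12 members, against 64.4% of all genes. The median log2 ratio of CPM, replicate 1 over replicate 2, was -1.11 over the 12 members and -0.38 over all genes tested. TMM scaling, which moved the median of all genes to 0.05, called 4 of the 12 members, against 61.4% of all genes. DESeq2 size factors also called 4, against 61.3% of all genes.

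Cyp2e1 was the only called member that was higher in replicate 1, with a log2 ratio of 2.41 (adjusted p = 2.02e-05, Fisher's exact test). Of all genes 27.9% were called higher in replicate 1 and 36.6% in replicate 2, beside 1 and 6 of the 12 members. Higher in replicate 2 were Cyp27a1 (-2.45, adjusted p = 0.000106), Cyp4f16 (-2.38, adjusted p = 4.82e-06) and Cyp4v3 (-2.35, adjusted p = 4.29e-11). Smaller differences in the same direction were called for Cyp1b1 (-1.16, adjusted p = 0.0180), Cyp4f14 (-1.16, adjusted p = 0.00387) and Cyp20a1 (-1.08, adjusted p = 0.000925), and these last 3 were lost under TMM scaling, where their adjusted p ran from 0.0530 to 0.171. Not past the threshold were Cyp2j6 (log2 ratio -1.14), Cyp2d22 (-0.92), Cyp4b1 (0.14), Cyp4f13 (0.14) and Cyp4f18 (0.46), with adjusted p from 0.0963 to 0.850.

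Over all genes tested, the ratio between the libraries followed transcript length. The running median log2 ratio of all genes tested was 0.76 at 1702 bases, the length of Cyp4f18, and -1.54 at 3808 bases, the length of Cyp4v3. After this trend was removed, 3 of the 11 members with an annotated length were called by an exact binomial test adjusted over all genes, against 41.1% of all genes. These were Cyp2e1, higher in replicate 1 (2.14, adjusted p = 0.000367), and Cyp27a1 (-2.51, adjusted p = 0.000146) and Cyp4f16 (-1.58, adjusted p = 0.00541), higher in replicate 2. Cyp1b1 lay on the trend, with a remaining log2 ratio of 0.05, and Cyp4v3 kept -0.80 (adjusted p = 0.0584). The length used for Cyp1b1, 4782 bases, is that of its annotated transcripts. Of its 17 reads in replicate 1, however, 14 were of genomic models, of 1505 to 2126 bases. With known models only, and length not removed, its log2 ratio was -2.89 (adjusted p = 0.000406, Fisher's exact test).

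**Figure D3:**
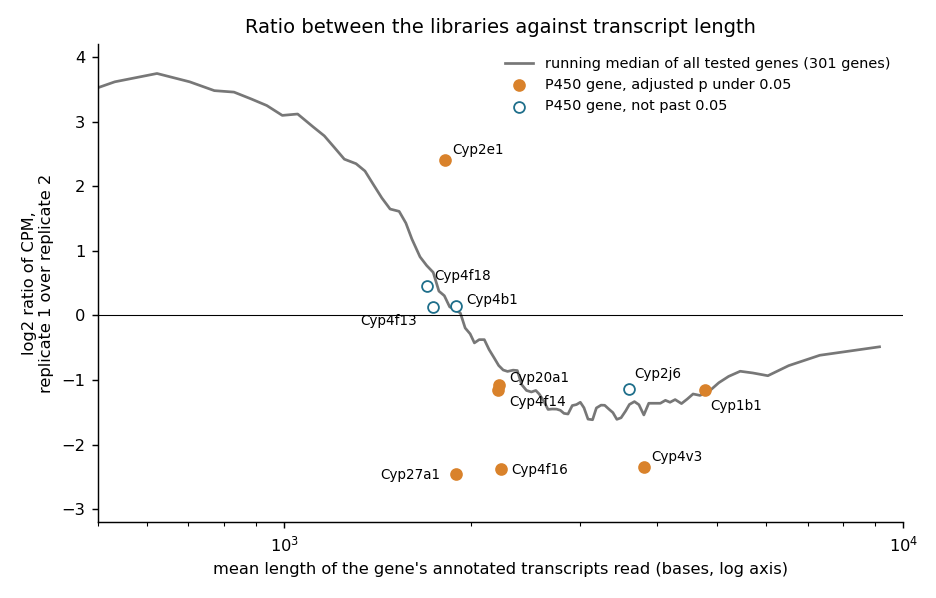
Log2 ratio of CPM, replicate 1 over replicate 2, against the mean length of the annotated transcripts read for each gene (bases, log axis), for the 11 P450 genes with a length. The line is the running median over all tested genes. Cyp2e1 lies well above the line, Cyp27a1, Cyp4f16 and Cyp4v3 lie below it, and the other 7 lie within 0.53 of it.

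Markers of fat and liver were looked at beside Cyp2e1, since both tissues are known to express it strongly. The 6 adipocyte markers had 185 reads in replicate 1 and 25 in replicate 2, with Cfd at 85 and 0, Adipoq at 14 and 0, Plin1 at 72 and 23, and Lep and Ucp1 at 0 in both. The 10 liver markers had 28 and 4 reads, of which 24 and 2 were in Hp, and 7 of them, Alb among them, were at 0 in both. Hp was the 1 liver marker tested and was called higher in replicate 1, but not with length removed (log2 ratio 0.35, adjusted p = 0.873). Of the 4 adipocyte markers tested, 3 were called higher in replicate 1, and 2 with length removed. Over all genes 27.9% were called higher in replicate 1 and 36.6% in replicate 2, or 21.2% and 19.9% with length removed. The 6 endothelial markers had 233 reads in replicate 1 and 552 in replicate 2, and 5 of 5 tested were called higher in replicate 2, or 2 with length removed. The part of these cells in the differences of Cyp2e1 and of the other members was not tested. Of 7 kidney markers 6 were at 0 in both libraries. Of 5 lung markers, Sftpc had 20 reads in replicate 1 and 0 in replicate 2 and was called higher in replicate 1, but not with length removed (adjusted p = 0.761), and the others had 0 reads in replicate 1 and at most 1 in replicate 2. In contrast, the adrenal cortex and medulla markers all had reads in both, as did all 6 endothelial and all 6 stroma markers. The stroma markers had 429 reads in replicate 1 and 159 in replicate 2. Of the 6 tested, 1 was called higher in replicate 1 and 2 in replicate 2, or 2 and 0 with length removed.

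Most member reads were of annotated structure. Known transcripts, with the splice junctions of an annotated transcript, took 192 of 283 reads in replicate 1 (67.8%, interval 62.1 to 73.3%) and 245 of 323 in replicate 2 (75.9%, 70.8 to 80.4%). Over all protein-coding genes the shares were 76.5% and 75.5%, so members were below the background in replicate 1 and within their interval of it in replicate 2. Partial splice chains made up 10.2% and 4.64% of member reads, against 12.9% and 10.2% over all protein-coding genes. Reads of genomic models, with no matching splice structure, made up 8.48% and 2.79%, against 4.59% and 3.18%. Models deposited as new combinations of known sites made up 4.95% and 11.8%, against 3.30% and 6.32%. Models deposited as having a new splice site made up 8.48% and 4.95%, against 2.64% and 4.74%. The annotation does not cleanly separate these 2 classes. The 10-exon model of Cyp2d22, with an unannotated donor (below), was in the second class in replicate 1 and in the first in replicate 2. Their shares therefore do not count unannotated sites alike in the libraries.

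**Figure D4:**
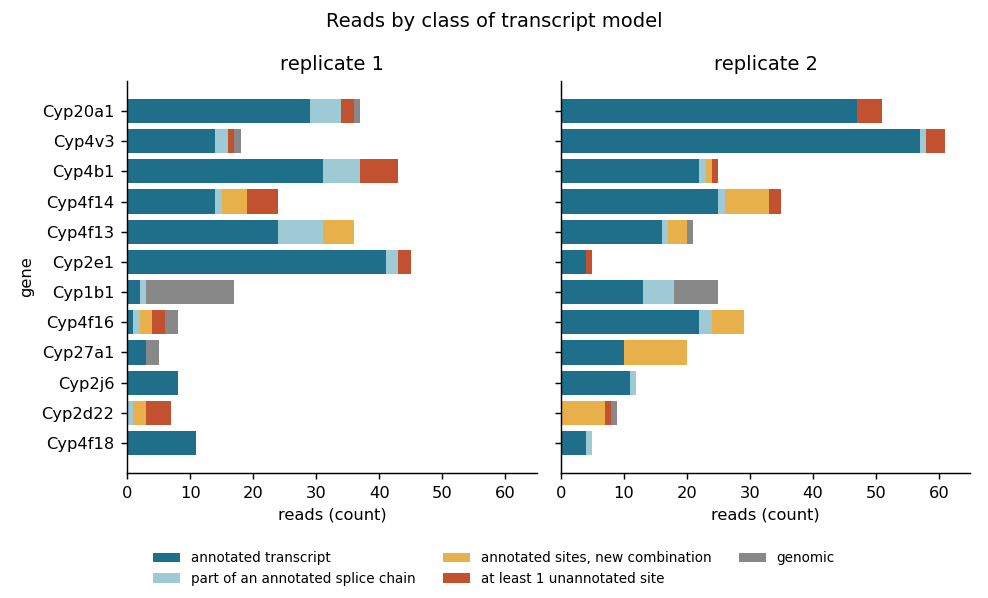
Reads (horizontal, count) of the 12 most read P450 genes in replicate 1 (left) and replicate 2 (right), coloured by the deposited class of transcript model. In replicate 2 the class of new combinations includes a Cyp2d22 model with an unannotated donor. Cyp2d22 has no read of an annotated transcript in either library, Cyp1b1 has 14 and 7 genomic reads, and Cyp27a1 has 10 reads of new combinations of annotated sites in replicate 2 only.

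Transcript models that span the whole coding region held 219 of 283 reads in replicate 1 (77.4%) and 295 of 323 in replicate 2 (91.3%), and their intervals, 72.1 to 82.1% and 87.7 to 94.2%, did not overlap. The annotated splice chain of the coding region was intact in 68.6% and 80.2% of reads. In the 24 members that had a read and the haem signature, the cysteine codon shown above lay inside the model for 202 of 237 reads (85.2%) in replicate 1 and 253 of 264 (95.8%) in replicate 2, and the start codon for 81.9% and 92.0%. These are extents of the deposited models, which reads share, not of single reads.

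A single transcript carried most reads in 5 of the 6 members with 50 or more reads. Cyp20a1-201, of 13 exons and 2223 bases, held 28 of 37 reads in replicate 1 and 46 of 51 in replicate 2, followed by 3 reads of an unannotated model of 2121 bases in the 2 libraries together and by 2 of an annotated transcript of 12 exons that is marked for nonsense-mediated decay. Cyp4v3-201 held 14 of 18 and 57 of 61, and Cyp4b1-201 held 31 of 43 and 22 of 25. The next models of Cyp4v3 had a single read each, and those of Cyp4b1 were partial chains of 4 and 2 reads, both in replicate 1. Cyp2e1-201 held 40 of 45 and 4 of 5. Cyp4f13-201 held 20 of 36 and 16 of 21, followed by 3 reads of the retained-intron transcript Cyp4f13-207 in replicate 1.

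Cyp4f14 was the exception, and its variety lay before the coding region. Cyp4f14-201 held 10 of 24 reads in replicate 1 and 16 of 35 in replicate 2, Cyp4f14-202 held 4 and 9, and the most read unannotated model held 2 and 4. Yet the annotated coding splice chain was intact in 22 of 24 reads and 33 of 35. Of its unannotated junctions, 3 were seen in both libraries, all upstream of the start codon on the minus strand of chromosome 17. The donor at 32917120 had 3 reads and 1 read, and the donor at 32917331 had 3 reads in each library.

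The share of the most used model could be tested in 3 members with 20 or more reads of annotated or new splice structures per library. None was called (Fisher's exact test, adjusted over all genes tested), against 9.84% of 2186 genes, and at an unadjusted p under 0.05 there was also none. The unadjusted p was 1 for Cyp20a1 and Cyp4f14 and 0.462 for Cyp4b1 in the exact test.

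Cyp2d22 was read in a form that the annotation lacks. None of its 7 reads in replicate 1 and 9 in replicate 2 was of an annotated transcript. Of the reads that spliced the first intron, 7 of 7 in replicate 1 and 7 of 8 in replicate 2 left the first exon 6 bases before its annotated end, at a donor whose intron begins at 82380077 on the minus strand of chromosome 15, against 82380071 in the annotation (mm10). The junction lies in the untranslated leader, with 60 bases between the acceptor and the start codon. It is shown with 12 bases on each side, in the annotated and the read form, with the 6 bases that the reads leave out in capitals.
Cyp2d22 annotated: cagaacgcaccgGTAAAGgtagctggagtt
Cyp2d22 read: cagaacgcaccggtagctggagtt

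The omitted bases begin with GT, the usual first bases of an intron. The full model with this junction has 10 exons and 2749 bases and held 3 reads in replicate 1 and 4 in replicate 2. The coding splice chain was as annotated in 3 of 7 and 4 of 9 reads. Of 42 unannotated junctions of members, 5 were seen in both libraries (11.9%), against 11.8% over all protein-coding genes. These 5 were the one of Cyp2d22, the 3 of Cyp4f14 and 1 of Cyp20a1, whose acceptor at 60353010 on chromosome 1 lies 102 bases downstream of the annotated one and had 1 read and 2.

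At least 1 coding intron was kept in 5 of 255 spliced member reads in replicate 1 (1.96%) and in 22 of 314 in replicate 2 (7.01%), of which 0 and 10 were in Cyp27a1. Smaller counts were seen in others, such as 3 reads of Cyp2d22 and 2 of Cyp46a1 in replicate 2, and 2 reads of Cyp4f13 and of Cyp4f16 in each library. Intron 4 of Cyp27a1, of 112 bases at chr1:74735752-74735863, was kept in 0 of 3 spliced reads in replicate 1 and in 9 of 20 in replicate 2 (45.0%, interval 23.1 to 68.5%). With 3 reads the interval of replicate 1 reached up to 70.8%, so the libraries could not be told apart on this count. Intron 7 of Cyp27a1, of 80 bases, was kept in 5 of 19 reads of replicate 2.

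**Figure D5:**
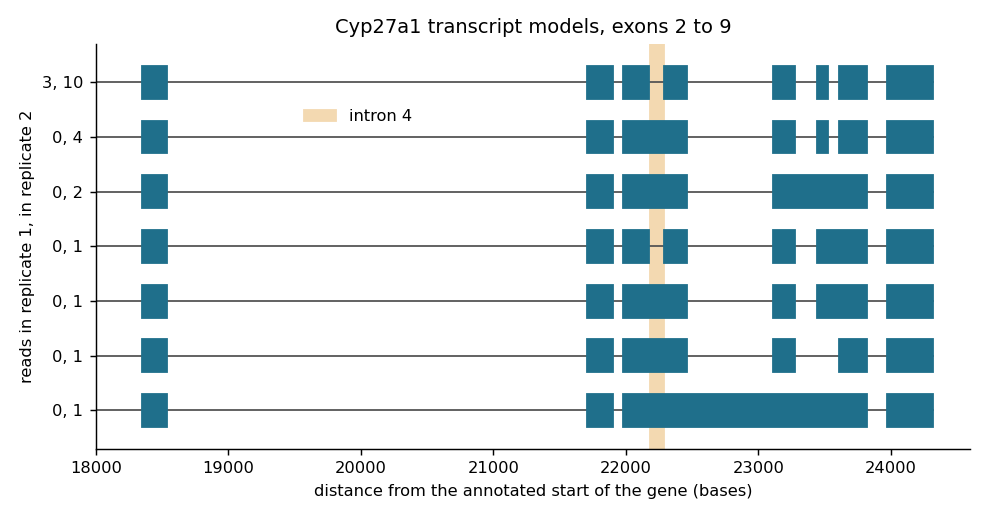
Spliced transcript models of Cyp27a1 from exon 2 on, by distance from the annotated start of the gene (bases), with exons as boxes and intron 4 shaded. The annotated form (top) had 3 reads in replicate 1 and 10 in replicate 2, and of the 6 other forms, all in replicate 2 only, 5 keep intron 4.

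Cyp1b1 stood out by its unspliced reads. Of its reads, 14 of 17 in replicate 1 and 7 of 25 in replicate 2 belonged to genomic models. The annotated Cyp1b1-201 had 2 and 10 reads, and Cyp1b1-202 had 0 and 3.

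Of the redox partners of the P450 enzymes, Por, Fdx1 and Fdxr were each read above the level of every single member in both libraries. Por had 121 reads (143 CPM) in replicate 1 and 636 (1166 CPM) in replicate 2. Fdx1 had 1663 reads (1959 CPM) and 329 (603 CPM), and Fdxr had 1077 (1269 CPM) and 1502 (2755 CPM). These also serve the steroid P450 enzymes left out here.

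Of the 11 electron donor genes, 10 could be tested, of which 4 were higher in replicate 1, 3 were higher in replicate 2 and 3 were not called. Over all genes 64.4% were called, 27.9% higher in replicate 1 and 36.6% in replicate 2. With length removed these last 2 shares were 21.2% and 19.9%. Besides Fdx1, Cyb5a (215 and 6 reads), Cyb5r3 (535 and 170) and Fdx1l (61 and 1) were called higher in replicate 1, and besides Por and Fdxr, Cyb5b (157 and 355) was called higher in replicate 2. Pgrmc1, a haem-binding partner of P450 enzymes, had 668 and 445 reads and was not called, and Cyb5r2 had none. Fdx1 turned round with length removed, with a log2 ratio of -1.42 against 1.70 before, while Por kept its sign at -1.68. The calls of Cyb5a (0.95, adjusted p = 0.149) and Fdx1l (1.22, adjusted p = 0.403) were lost with length removed, where 2 of the list were higher in replicate 1 and 4 in replicate 2.

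Of the 11 genes of haem synthesis and breakdown, all were read in both libraries and tested. Of these, 5 were higher in replicate 1 and 4 in replicate 2, beside 27.9% and 36.6% of all genes, and 2 were not called. With length removed 2 were higher in replicate 1 and 4 in replicate 2, beside 21.2% and 19.9% of all genes. Of the regulators that induce P450 genes in liver, Nr1i2 (PXR), Nr1i3 (CAR) and Hnf4a had no read. Ahr, the aryl hydrocarbon receptor, had 7 reads in replicate 1 and 0 in replicate 2, and Nfe2l2 had 72 and 182. Of the 9 regulators tested, 0 were higher in replicate 1, 3 were higher in replicate 2 and 6 were not called, and with length removed 0 and 1 were called. Of 12 tested genes that conjugate or hydrolyse P450 products, 11 were higher in replicate 1 and 1 in replicate 2. Over all genes these shares were 27.9% and 36.6%. With length removed 4 of them were higher in replicate 1 and 0 in replicate 2, where 21.2% of all genes were called higher in replicate 1 and 19.9% in replicate 2.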

How the data were processed

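Long-read RNA sequencing of adrenal gland gave a count table and a model annotation for each of 2 libraries. The authors deposited counts of whole reads per transcript model, without normalization, on mm10 with GENCODE M21, per the text deposited with each library, and new models carry TALON as their source in the annotation. No source used here gives the platform, the aligner or the treatment of reads that match several places. Near-identical paralogs could share or lose reads at that step.

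For each annotated gene the reads of all its models were added up and set against the library total. Total reads were 848782 in replicate 1 and 545229 in replicate 2, so 1 read is 1.18 and 1.83 CPM. Intervals are at 95%, exact Clopper-Pearson for shares and exact Poisson for levels, and a count of 0 carries a floor of 3 counts, all of which cover counting error only. In log2 ratios, replicate 1 over replicate 2, a pseudocount of 1 CPM was added and shrinks the ratio of low genes. Genes with 10 or more reads summed were tested as described (Fisher's exact test, threshold 0.05). Alternatives were TMM scaling (edgeR 4.0.16) and DESeq2 (1.42.0) size factors with an exact binomial test, read filters, known models only and removal of a running median over transcript length. The test was run on simulated counts with no length trend between the libraries, so that run does not cover the differences seen here. Python 3.11.15 with scipy 1.17.1 and Biopython 1.88, and R 4.3.3, were used. Sequences are from GENCODE M21 transcripts and a RefSeq promoter table. All members with 10 or more reads were named, with the 3 most read models of those with 50 or more. Members and lists were chosen with earlier results of these data known.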

Additional observations from a re-analysis of the deposited data

How the results depend on the processing

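The count of members that differ between the libraries was 7 of 12, where 64.4% of all genes were called. It became 4 of 12 under TMM scaling (all genes 61.4%) and 4 of 12 under DESeq2 size factors (61.3%). With the length trend removed it was 3 of 11 (41.1%). It was 8 of 29 without a filter on reads (37.5%), 7 of 10 at 20 reads or more (73.8%) and 7 of 11 with known models only (75.6%). The share of member reads in the 3 most read members, 38.5% on average, was 45.0% with known models only and ran from 34.6% to 42.4% with either library left out. The 18 members read in both libraries became 14 at 3 reads or more, 14 with known models only and 17 without genomic models. With either library left out, the share of all reads ran from 0.0333% to 0.0592% and the share in known models from 67.8% to 75.9%. The most used model was called in 0 members under each alternative, of 5 members tested at 10 spliced reads and 1 with known models only.

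Log2 ratios changed sign with the length trend removed in Cyp2j6 (0.25), Cyp4f18 (-0.30), Cyp4f13 (-0.53) and Cyp1b1 (0.049), and with known models only in Cyp4b1 (-0.14) and Cyp4f13 (-0.052). The length trend itself moves these values by construction. In the known models the cause was not tested. A pseudocount of 5 CPM turned no sign in the 12 members, but adding the same value to both libraries cannot turn one. No paired analysis was possible because there is a single group. Comparisons between libraries need both, so none could be repeated with a library left out. Members with under 10 reads were not tested, and low counts limit every ratio.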
